A study of Mus musculus with 6 samples.

Results

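Tumor cells carry surface proteins that lymphocytes and macrophages read, and 10 genes of such proteins were followed in mouse melanoma lines: Cd274, Cd276, Cd200, Pvr, Pvrl2, Pvrl1, Cd47, Nt5e, Fas and Ulbp1. They were chosen by gene symbol for what their proteins do, with earlier results of these data known. All 10 symbols are among the 23951 genes of the deposited table. Only 5 of the 10, Pvrl2, Pvr, Cd47, Cd276 and Cd274, passed the filter on low values (at least 1 FPKM in at least 2 libraries), as did 11379 of all genes. FPKM divide the fragments of a gene by its transcript length, so that levels can be set side by side between genes, and by a library size whose scaling is not given in the sources used here. Polyadenylated RNA was sequenced from 3 untreated lines with 2 libraries each. B16-F1 is the melanoma line of low metastatic potential, obtained from a repository. B16-F1R2 was derived from a lymph node metastasis, and B16-F1R2L from a lung metastasis of lymph node metastatic cells, and both came from one other laboratory. In the comparisons with B16-F1, line and source of the cells therefore cannot be told apart. Each line stands for itself only, and no source states that its 2 libraries are separate cultures. The p-values thus measure only the spread between libraries, which may be technical. In bulk RNA, fewer cells that express a gene and less of its RNA per cell cannot be told apart.

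Checkpoint ligands hold back immune cells through receptors on their surface. PD-L1, the product of Cd274, engages PD-1 on T cells, and interferon gamma is its best known inducer. B7-H3, encoded by Cd276, belongs to the same B7 family. CD155 (Pvr) and nectin-2 (Pvrl2) are bound by the inhibitory receptor TIGIT and by the activating receptor DNAM-1 (Cd226) on T and NK cells, so the same ligand can restrain or provoke an attack. CD47 signals to SIRP alpha on macrophages and protects a cell from being engulfed, CD200 restrains myeloid cells, and CD73 (Nt5e) makes the immunosuppressive adenosine from AMP. FAS is the death receptor through which killer cells trigger apoptosis, and MULT-1 (Ulbp1) is a stress ligand of the activating NK receptor NKG2D.

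The ligand genes fell into an expressed and a nearly silent group, and 4 of the 5 expressed ones were higher in both metastatic variants than in B16-F1. The 4 were Pvrl2, Pvr, Cd276 and Cd274, while Cd47 was lower. The 5 other genes stayed under 0.21 FPKM in every library, and Ulbp1, which has no entry in the NCBIM37 annotation used here, was listed at 0 in all 6. The 10 genes summed to 46.2 to 50.8 FPKM in the B16-F1 libraries, 74.4 to 77.2 (B16-F1R2) and 78.5 to 82.3 (B16-F1R2L), and Pvrl2 made up the greatest part of each sum.

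Lines were compared by limma, a linear model whose estimate of the spread is shared across genes, on log2(FPKM + 0.1) with Benjamini-Hochberg adjustment over all 11379 tested genes and a threshold of 0.05. Between B16-F1R2 and B16-F1, 4 of the 5 tested ligand genes were higher, where 28.2% of all tested genes were, and 1 was lower, against 27.2% of all. For B16-F1R2L against B16-F1 the numbers were again 4 higher and 1 lower, against 29.5% and 27.1% of all tested genes. Both comparisons use the same B16-F1 libraries. In either direction 55.4% and 56.7% of all tested genes were called, so a call alone sets no ligand gene apart. The libraries of the 4 genes lay above those of B16-F1 without overlap, as at 40.3% (B16-F1R2) and 41.7% (B16-F1R2L) of all tested genes, and those of Cd47 lay below, as at 39.7% and 39.1%. A called rise of at least 1 on the log2 scale was reached by none of the 5 genes in B16-F1R2 by limma, with Pvrl2 at 0.999 (7.2% of all tested genes) and by 3 in B16-F1R2L (8.41%), which were Cd274, Cd276 and Pvrl2. The median log2 fold change of the 5 genes was 0.75 for B16-F1R2 and 1.0 for B16-F1R2L, where all tested genes had medians of 0.0046 and 0.017. With 2 libraries against 2, the smallest two-sided p of an exact permutation test of 1 gene would be 0.333, and the calls rest on the spread pooled by limma.

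**Figure D1:**
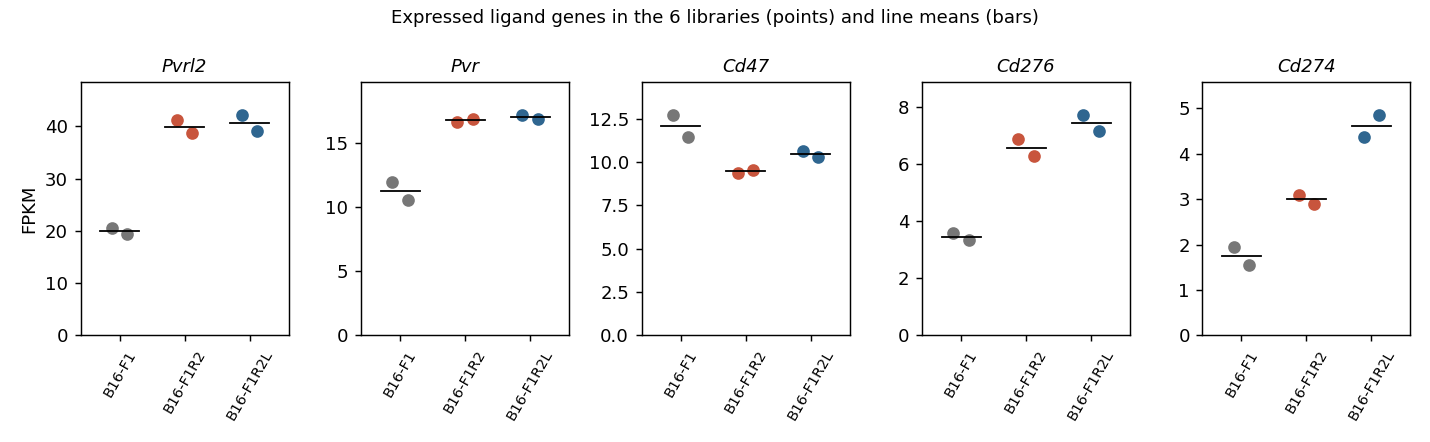
FPKM (vertical axes, each from 0) of the 5 expressed ligand genes in the 2 libraries of each line (points), with the mean of the line as a bar. Pvrl2, Pvr, Cd276 and Cd274 lie higher in both libraries of both variants than in both B16-F1 libraries, and Cd47 lies lower.

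Markers of other cells were checked because RNA of leukocytes would carry such ligands too. Of 20 leukocyte markers 9 were listed at 0 in all libraries, among them Ptprc (CD45), the T cell gene Cd3e and the B cell gene Ms4a1. The summed level of the 20 was 2.77 to 3.03 FPKM in B16-F1, 17.5 to 19.4 (B16-F1R2) and 25.1 to 25.2 (B16-F1R2L). Only 4 were tested, and 3 of them, Cd79a, Cd74 and Lyz2, were higher in both variants, where 28.2% (B16-F1R2) and 29.5% (B16-F1R2L) of all tested genes were. All 3 passed the filter through the variants alone, so their calls are no independent evidence of the direction. Cd79a, a B cell receptor component, went from 0 and 0.059 FPKM (B16-F1) to 12.7 and 12.4 (B16-F1R2) and 17.1 and 15.9 (B16-F1R2L). The part of these genes in the ligand values was not tested. Of 12 stromal, endothelial and keratinocyte markers 2 were tested, with 1 higher (Pecam1) and 1 lower (Prox1) in B16-F1R2 (28.2% and 27.2% of all tested genes). Pecam1 passed the filter through B16-F1R2L alone. The sum of the 12 was 1.71 to 2.52 FPKM over all libraries. All 7 melanocyte markers were expressed in every line, with sums of 14970 to 15010 FPKM in B16-F1 and 7909 to 8933 in the variants.

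Promoters are shown for Pvrl2, Cd274 and Fas. Pvrl2 was the member with the highest level, Cd274 the one also past the threshold between the variants, and reads of Fas came from B16-F1R2L alone. The sequences are the 250 bases before the RefSeq transcription start (table of GRCm38.p6), read 5′ to 3′ on the strand of the gene, and each matched NCBIM37 (mm9), the build of the deposited data, at 1 place. Capitals mark every match of 5 motifs searched on both strands: the interferon response element (GAAA, any 2 bases, GAAA), the gamma-activated site TTCNNNGAA, the E-box CACGTG, the AP-1 site TGACTCA and the GC box GGGCGG. The Pvrl2 window lies at chr7:20334923-20335172 on the minus strand, that of Cd274 at chr19:29441678-29441927 on the plus strand, and that of Fas at chr19:34364899-34365148 on the plus strand.
Pvrl2: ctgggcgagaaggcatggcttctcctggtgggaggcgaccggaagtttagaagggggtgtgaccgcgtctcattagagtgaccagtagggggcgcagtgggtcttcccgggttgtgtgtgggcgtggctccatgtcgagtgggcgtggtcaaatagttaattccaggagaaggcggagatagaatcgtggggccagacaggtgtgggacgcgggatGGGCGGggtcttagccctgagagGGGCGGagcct
Cd274: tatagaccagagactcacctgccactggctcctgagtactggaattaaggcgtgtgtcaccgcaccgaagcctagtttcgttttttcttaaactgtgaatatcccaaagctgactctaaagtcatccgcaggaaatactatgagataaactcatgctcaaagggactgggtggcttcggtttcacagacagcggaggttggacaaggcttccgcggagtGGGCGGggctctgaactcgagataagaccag
Fas: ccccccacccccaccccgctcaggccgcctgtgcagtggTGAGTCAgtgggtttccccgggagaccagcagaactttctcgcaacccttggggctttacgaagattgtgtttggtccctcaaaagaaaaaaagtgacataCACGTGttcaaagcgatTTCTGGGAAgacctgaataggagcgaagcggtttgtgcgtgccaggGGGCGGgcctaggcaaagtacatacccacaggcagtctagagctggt
The Pvrl2 window held 2 GC boxes and that of Cd274 held 1, a motif found in 32.7% of the 32851 promoter windows of the table. The Fas window held a GC box, a gamma-activated site (in 7.02% of all windows), an E-box (6.02%) and an AP-1 site (4.46%), and none of the matches overlapped. The strict interferon response element, present in 2.98% of all windows, did not occur in the 3 sequences, which says only that these letters are not in these windows.

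Nectin-2 is an adhesion molecule of cell junctions, and its gene Pvrl2 had the highest level of the members in each library. Pvrl2 lies on the minus strand of chromosome 7 from 20301993 to 20334922 (NCBIM37), with 2 annotated transcripts. B16-F1 gave 20.6 and 19.3 FPKM, B16-F1R2 gave 41.2 and 38.7, and B16-F1R2L gave 42.1 and 39.2. The mean was 2.00-fold (B16-F1R2) and 2.04-fold (B16-F1R2L) that of B16-F1. On the log2 scale these were differences of 1.00 (standard error 0.06, adjusted p = 4.4e-05 from limma) and 1.02 (0.06, adjusted p = 3.7e-05). Only 10.7% of all tested genes had a larger absolute change between B16-F1R2 and B16-F1. Between the variants the libraries overlapped, with a log2 fold change of 0.02 and a 95% interval from -0.12 to 0.17.

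Pvr encodes CD155, the poliovirus receptor homolog, and it lies near Pvrl2 on the minus strand of chromosome 7, from 20488927 to 20506509. B16-F1 gave 11.98 and 10.6 FPKM, B16-F1R2 gave 16.7 and 16.9, and B16-F1R2L gave 17.2 and 16.9. Both variants were above B16-F1 without overlap, with log2 fold changes of 0.57 (standard error 0.07, adjusted p = 8.3e-04 from limma) for B16-F1R2 and 0.59 (0.07, adjusted p = 7.0e-04) for B16-F1R2L. The libraries of the variants overlapped, at a log2 fold change of 0.02 with a 95% interval from -0.15 to 0.19. The rise was smaller than that of Pvrl2, so the ratio of Pvrl2 to Pvr FPKM, which was 1.72 and 1.83 in the B16-F1 libraries, was between 2.30 and 2.47 in the 4 libraries of the variants.

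Genes beside Pvrl2 on chromosome 7 moved in both directions. Of the 5 nearest tested genes on each side of Pvrl2, which include Pvr, B16-F1R2 had 4 higher and 5 lower relative to B16-F1 (28.2% and 27.2% of all tested genes), at a median log2 fold change of -0.09. Of these 10, the 3 beyond Pvr start at base 24768980 or later and are thus far from Pvrl2. Bcam, a laminin receptor gene between Pvrl2 and Pvr that was named after its value was seen, had 2.10 (adjusted p = 6.6e-05 from limma).

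Of 6 other nectin and nectin-like adhesion genes 3 were tested. Against B16-F1, 1 was higher and 2 did not pass the threshold in B16-F1R2, at a median log2 fold change of 0.06, and 2 were higher in B16-F1R2L, at a median of 0.39, where 28.2% and 29.5% of all tested genes were higher. The gene higher in both was Cadm4, which went from 25.4 and 24.5 FPKM (B16-F1) to 94.9 and 96.7 (B16-F1R2) and 100 and 90.3 (B16-F1R2L) (log2 fold change 1.94 for B16-F1R2, adjusted p from limma 2.7e-06). Pvrl3, the nectin-3 gene, had between 13.1 and 15.0 FPKM in every library (log2 fold change -0.09 for B16-F1R2, adjusted p = 0.27 from limma). Cadm1, whose product is bound by the NK and T cell receptor CRTAM, did not pass the threshold in B16-F1R2 (0.06, adjusted p = 0.49). B16-F1R2L exceeded B16-F1 by 0.39 at Cadm1 (adjusted p = 0.0039 from limma) and B16-F1R2 by 0.33 (adjusted p = 0.024). Pvrl1, the nectin-1 gene, was listed at 0 in 5 libraries and had 0.0126 FPKM in the other, which is about 0.9 of a single read.

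Cd276 lies on the minus strand of chromosome 9 from 58372107 to 58402939. B7-H3 is a B7 family member found on many solid tumors. B16-F1 gave 3.596 and 3.32 FPKM, B16-F1R2 gave 6.88 and 6.26, and B16-F1R2L gave 7.70 and 7.13. The libraries of the variants were all above those of B16-F1, with log2 fold changes of 0.91 (standard error 0.09, adjusted p = 3.4e-04 from limma) and 1.08 (0.09, adjusted p = 1.6e-04). Between the variants both B16-F1R2L libraries lay above both of B16-F1R2, but the difference of 0.17 did not pass the test (adjusted p = 0.22 from limma, 95% interval from -0.05 to 0.39). Between the variants, 35.9% of all tested genes had both B16-F1R2L libraries above both of B16-F1R2 and 29.2% had both below. The 10 tested neighbours of Cd276 had a median log2 fold change of -0.02 in B16-F1R2 against B16-F1.

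Cd274, the PD-L1 gene, was the lowest of the expressed members and the one past the threshold in all 3 comparisons. It lies on the plus strand of chromosome 19 from 29441945 to 29462585, with 1 annotated transcript of 3622 bases. B16-F1 gave 1.95 and 1.54 FPKM, B16-F1R2 gave 3.09 and 2.90, and B16-F1R2L gave 4.38 and 4.85. No library of one line overlapped those of another, and the order was B16-F1 below B16-F1R2 below B16-F1R2L. The libraries of Cd276 and Cd47 did not overlap in any comparison either, and those of Cd276 had the same order. Between the variants, both B16-F1R2L libraries lay above both of B16-F1R2 at 35.9% of all tested genes. The mean of Cd274 was 1.71-fold that of B16-F1 in B16-F1R2 (log2 fold change 0.75, standard error 0.14, adjusted p = 0.0045 from limma) and 2.64-fold in B16-F1R2L (1.36, 0.14, adjusted p = 3.7e-04).

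The step from B16-F1R2 to B16-F1R2L was 0.61 on the log2 scale (standard error 0.14, adjusted p = 0.029 from limma), a size that 6.04% of the tested genes exceeded. Cd274 was the only 1 of the 5 tested members past the threshold there, where 12.1% of all tested genes were higher and 22.6% were called in either direction. This call needed all 4 libraries of the variants. The value was 0.65 without the first B16-F1R2 library (adjusted p = 0.10), 0.56 without the second (0.11), 0.68 without the first B16-F1R2L library (0.063) and 0.53 without the second (0.14). Quantile normalization gave 0.49 (adjusted p = 0.051) and no filter gave 0.61 (adjusted p = 0.065). The lowest Cd274 value, that of the second B16-F1 library, corresponds to about 69.4 reads and the highest to about 258. About 1.48% of the stretches of 50 bases in its transcript also occur in other genes.

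**Figure D2:**
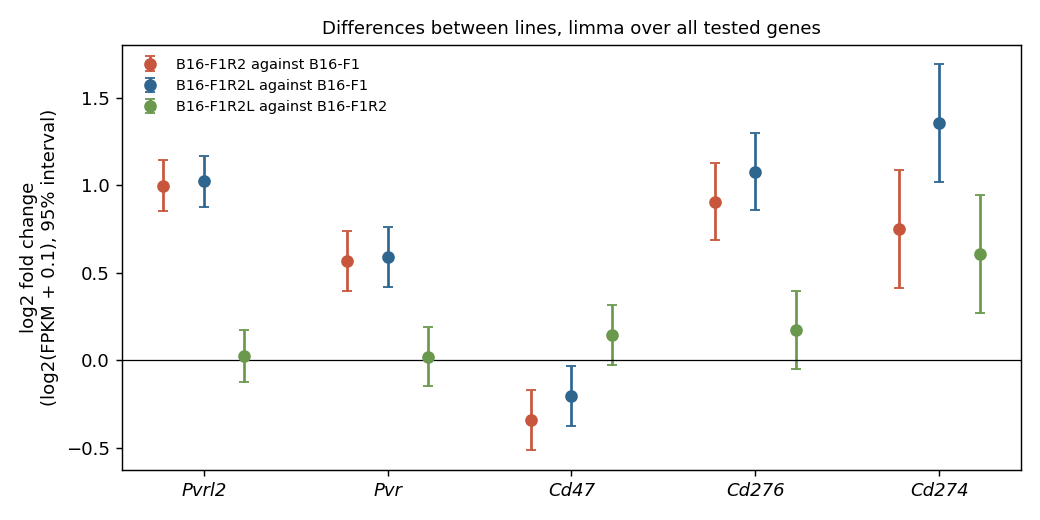
Log2 fold changes from log2(FPKM + 0.1) (vertical axis) of the 5 expressed ligand genes in the 3 comparisons of lines, with 95% intervals from limma. Only Cd274 has an interval clear of 0 in the comparison of B16-F1R2L with B16-F1R2, from 0.27 to 0.94, and Cd47 lies below 0 in the comparisons with B16-F1.

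The genes around Cd274 and those that regulate PD-L1 went in both directions. Jak2, a kinase of interferon receptors that lies on the same stretch of chromosome 19, had 7.44 and 7.32 FPKM (B16-F1), 4.69 and 4.27 (B16-F1R2), and 5.30 and 6.52 (B16-F1R2L). B16-F1R2 was below B16-F1 (log2 fold change -0.71, adjusted p = 0.0025 from limma), while in B16-F1R2L the value was -0.32 (adjusted p = 0.050, just above the threshold). Of the 10 tested neighbours of Cd274, taken as 5 on each side, 4 were higher and 4 lower in B16-F1R2 (28.2% and 27.2% of all tested genes), with a median log2 fold change of -0.04. Insl6, a relaxin family gene between Jak2 and Cd274, moved as Cd274 did, by 1.61 in B16-F1R2 and 2.18 in B16-F1R2L against B16-F1 and by 0.57 between the variants (adjusted p = 0.042 from limma for the last). Ermp1, on the other side of Cd274, did so by 0.52, 0.74 and 0.22 (adjusted p = 0.033 for the last), and both were named after their values were seen. Pdcd1lg2, the gene of the second PD-1 ligand PD-L2, stayed under 0.114 FPKM in every library and was not tested.

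All 19 listed genes of interferon signalling and PD-L1 regulation were tested. Relative to B16-F1, 3 were higher and 11 lower in B16-F1R2, and 3 higher and 8 lower in B16-F1R2L. The shares over all tested genes were 28.2% higher with 27.2% lower (B16-F1R2) and 29.5% higher with 27.1% lower (B16-F1R2L). The list's median log2 fold changes were -0.31 and -0.18. Both interferon gamma receptor chains are on the list, and Ifngr2 fell by 0.74 (adjusted p = 2.5e-04 from limma) in B16-F1R2. Ifnar1, a chain of the type I interferon receptor, fell by 0.60, and Irf1, the transcription factor that acts on the PD-L1 promoter, had 8.00 and 7.39 FPKM (B16-F1) against 4.49 and 4.39 (B16-F1R2), a difference of -0.78 on the log2 scale (adjusted p = 9.9e-04).

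Myc, a transcription factor gene, rose by 1.11 on the log2 scale in B16-F1R2 and by 1.12 in B16-F1R2L against B16-F1 (adjusted p = 2.4e-04 from limma for both). Cmtm6, whose product keeps PD-L1 protein from degradation, had between 9.33 and 10.8 FPKM in every library, with log2 fold changes of -0.15 (adjusted p = 0.065) in B16-F1R2 and -0.18 (adjusted p = 0.038) in B16-F1R2L.

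**Figure D3:**
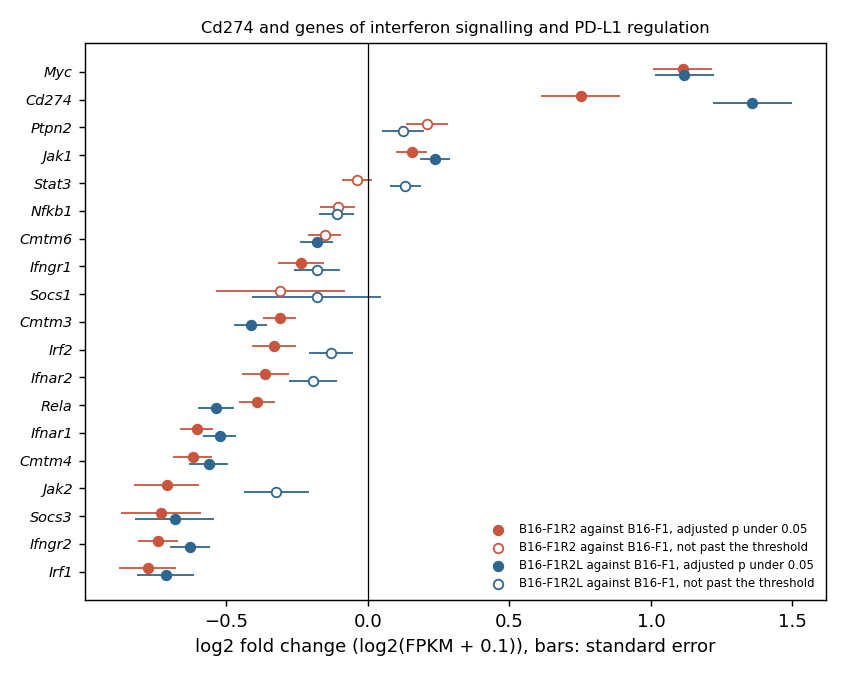
Log2 fold changes against B16-F1 (horizontal axis, bars show the standard error) of Cd274 and the listed genes of interferon signalling and PD-L1 regulation in B16-F1R2 and B16-F1R2L, with filled points for an adjusted p under 0.05 and 1 listed gene left out. Myc and Cd274 lie at the upper end, and Irf1, Ifngr2 and Jak2 toward the lower end for B16-F1R2.

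The remaining B7 and butyrophilin genes were close to silent. The 8 listed genes all stayed under 1 FPKM, and 5 were listed at 0 throughout. Their summed level was 0.36 to 0.395 FPKM in B16-F1 and 1.01 to 1.06 in the 4 libraries of the variants. Cd80, a ligand of CD28 and CTLA-4, had 0 and 0.046 FPKM in B16-F1 and 0.26 to 0.42 in the variants, and Icosl, the ligand of ICOS, had 0.35 and 0.29 against 0.49 to 0.75, and neither was tested. Among other inhibitory ligands 1 of 7 was tested. This was Lgals9, the gene of galectin-9, a ligand of the receptor TIM-3, which went from 32.3 and 33.8 FPKM (B16-F1) to 51.7 and 49.97 (B16-F1R2) (log2 fold change 0.62, adjusted p = 8.6e-05 from limma) and 50.3 and 50.3 in B16-F1R2L. Cd200 was listed at 0 in both B16-F1 libraries and had 0.0563 and 0.0532 FPKM (B16-F1R2) and 0.117 and 0.0265 (B16-F1R2L). These values are worth about 0.9 to 3.6 reads, so no difference could be read at this depth.

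Cd47 was the expressed member that went down. It lies on the plus strand of chromosome 16 from 49855731 to 49915123, and the annotation gives its symbol to a pseudogene entry at its 3′ end as well. B16-F1 gave 12.7 and 11.4 FPKM, B16-F1R2 gave 9.38 and 9.57, and B16-F1R2L gave 10.6 and 10.3. The libraries of both variants lay below those of B16-F1. The log2 fold change of -0.34 in B16-F1R2 (standard error 0.07, adjusted p = 0.0068 from limma) is a modest one, as 41.2% of all tested genes changed more. In B16-F1R2L it was -0.20 (0.07, adjusted p = 0.048), close to the threshold. In the order of levels, Cd47 and Pvr overlapped between the B16-F1 libraries, whereas Pvr stood above Cd47 in each library of the variants. The ratio of Pvr to Cd47 FPKM was 0.944 and 0.925 (B16-F1), 1.78 and 1.76 (B16-F1R2), and 1.61 and 1.64 (B16-F1R2L).

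The call of Cd47 in B16-F1R2L was lost under 10 of 16 alternatives. Rescaling each library to the same sum of FPKM moved the median of all genes in B16-F1R2L against B16-F1 from 0.017 to 0.12 and the value of Cd47 to -0.10 (adjusted p = 0.35). Without the first B16-F1 library it was -0.13 (adjusted p = 0.25), without either B16-F1R2 library it stayed at -0.20 (adjusted p = 0.074), without the first B16-F1R2L library it was -0.23 (0.086) and without the second -0.18 (0.16).

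Other signals that phagocytes read moved in both directions, and 5 of 7 listed genes were tested. Of these, B16-F1R2 had 1 higher and 3 lower relative to B16-F1 (28.2% and 27.2% of all tested genes), at a median log2 fold change of -0.72. Calr, the gene of calreticulin, which on the cell surface invites engulfment, had 1180 and 1164 FPKM (B16-F1), 675 and 688 (B16-F1R2), and 550 and 506 (B16-F1R2L). Its log2 fold changes against B16-F1 were -0.78 and -1.15, and the variants differed by -0.37 (adjusted p = 0.0096 from limma). Sirpa, the gene of the CD47 receptor, was itself expressed at 117 and 120 FPKM in B16-F1, and fell to 65.6 and 64.0 (B16-F1R2) and 73.6 and 72.3 (B16-F1R2L).

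Lrp1, which encodes a receptor for calreticulin, rose from 2.15 and 2.16 FPKM (B16-F1) to 8.52 and 10.0 (B16-F1R2) (log2 fold change 2.05, adjusted p = 2.1e-05 from limma) and 13.9 and 12.3 in B16-F1R2L. Qpct, a glutaminyl cyclase gene, fell by 0.72 in B16-F1R2, and its paralog Qpctl, whose enzyme modifies CD47 for SIRP alpha binding, had between 5.59 and 6.90 FPKM (log2 fold change -0.03 in B16-F1R2, adjusted p = 0.78). Thbs1, the gene of the CD47 ligand thrombospondin-1, had 0.95 and 1.19 FPKM in B16-F1 and 0.34 to 0.53 in the variants, and did not pass the filter.

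Nt5e, the gene of CD73, was at most at single reads. It lies on chromosome 9 from 88222447 to 88266927 and had 0.0202 FPKM in the second B16-F1 library and 0.0179 in the second B16-F1R2 library, each about 0.9 of a read, and was listed at 0 in the other 4. Entpd1, which encodes CD39, the enzyme ahead of CD73 in the breakdown of ATP to adenosine, was listed at 0 in all 6. Of the 11 listed genes of the adenosine pathway 6 were tested, with 3 higher and 1 lower in B16-F1R2 (28.2% and 27.2% of all tested genes) and a median log2 fold change of 0.41. Entpd2, another ectonucleotidase gene, rose from 2.51 and 2.57 FPKM (B16-F1) to 3.79 and 4.59 (B16-F1R2) and 5.05 and 5.10 (B16-F1R2L). Enpp1, whose enzyme cleaves ATP to AMP and also degrades the STING ligand cGAMP, had 0.51 and 0.27 FPKM (B16-F1), 0.81 and 0.75 (B16-F1R2), and 1.74 and 1.64 (B16-F1R2L). Enpp1, 1 of the 3 counted as higher, passed the filter only through the B16-F1R2L libraries, where it was high, so no test of it is given.

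Fas lies on the plus strand of chromosome 19 from 34365149 to 34402260. It was listed at 0 in both B16-F1 and both B16-F1R2 libraries and had 0.206 and 0.180 FPKM in B16-F1R2L. With 1 read worth 0.0458 to 0.0542 FPKM at its longest transcript, these are about 4.0 and 3.9 reads. Fas did not pass the filter. In the fit without a filter its adjusted p from limma was 9.1e-04 against B16-F1 and 0.011 against B16-F1R2, but such a fit takes the 0 values at face value, and no fold is given against lines listed at 0. The 10 tested neighbours of Fas had a median log2 fold change of 0.07 in B16-F1R2L against B16-F1R2, the step at which reads of Fas appeared. In this comparison 2 were lower (10.5% of all tested genes) and the other 8 were not past the threshold. The interferon-stimulated gene Ifit1 was the lowest of the 10 there at -0.59 (adjusted p = 0.022 from limma), but it was higher in both variants than in B16-F1. Its log2 fold changes against B16-F1 were 2.61 in B16-F1R2 (adjusted p = 1.5e-05 from limma) and 2.01 in B16-F1R2L (4.0e-05). Against B16-F1, 7 of the neighbours were higher in B16-F1R2, where Fas was listed at 0, and 9 in B16-F1R2L, at medians of 0.43 and 0.58, where 28.2% and 29.5% of all tested genes were higher.

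The machinery below the death receptors was expressed. Of 11 listed genes 9 were tested, with 3 higher and 4 lower in B16-F1R2 (28.2% and 27.2% of all tested genes) and a median log2 fold change of 0.07, counts near the shares over all genes. Fadd and Casp8, the adaptor and the initiator caspase that FAS recruits, had 15.95 to 21.3 and 26.9 to 36.2 FPKM over the 6 libraries, and Casp8 was higher than in B16-F1 by 0.18 in B16-F1R2 (adjusted p = 0.030 from limma) and by 0.35 in B16-F1R2L (0.0020). Cflar, the gene of the caspase-8 inhibitor c-FLIP, fell by 0.35 in B16-F1R2 and had a log2 fold change of -0.03 in B16-F1R2L (adjusted p = 0.67), a difference between the variants of 0.32 (adjusted p = 0.017). Faim2, which encodes an inhibitor of FAS-driven apoptosis known from neurons, was listed at 0 in both B16-F1 libraries and had 2.44 and 2.51 FPKM (B16-F1R2) and 3.08 and 2.75 (B16-F1R2L) and, being 1 of the 3 counted as higher, passed the filter only through these variants. Fasl was listed at 0 throughout.

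**Figure D4:**
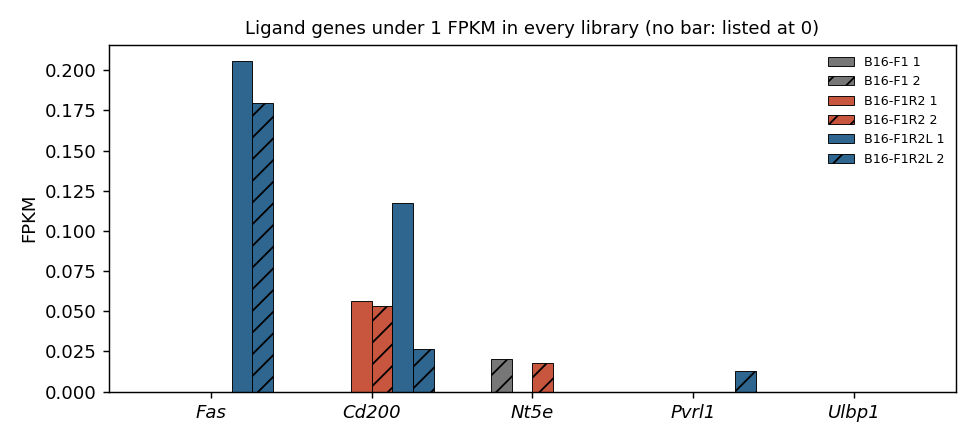
FPKM (vertical axis) in each of the 6 libraries of the 5 ligand genes that stayed under 1 FPKM, with the line shown by color and the second library hatched. Fas has bars in B16-F1R2L alone, at 0.206 and 0.180, and Ulbp1 has none.

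Ulbp1, the MULT-1 gene, was listed at 0 in all libraries. It has no entry in the NCBIM37 annotation used here and its RefSeq promoter window matched that build at 0 places, and whether the 0 reflects the reference or the RNA was not tested. Other NKG2D ligands were expressed at low levels. Of the 7 other listed ligands found in the table, 4 were tested, with 1 higher and 2 lower in B16-F1R2 (28.2% and 27.2% of all tested genes) and a median log2 fold change of -0.60. Raet1d went from 2.47 and 2.91 FPKM (B16-F1) to 6.46 and 6.48 (B16-F1R2) and 5.78 and 7.39 (B16-F1R2L) (log2 fold change 1.24 for B16-F1R2, adjusted p = 5.3e-04 from limma). H60b went from 1.84 and 1.26 to 0.40 and 0.23 (B16-F1R2) and 0.25 and 0.31 (B16-F1R2L) (-2.01, adjusted p = 0.0024). H60b passed the filter only through the B16-F1 libraries, where it was high, so its call is no independent evidence of the direction. Raet1e fell by 0.48 on the log2 scale from B16-F1 to B16-F1R2 and then differed by 0.42 between the variants, with B16-F1R2L higher (adjusted p = 0.034). Raet1a had 3.30 and 2.87 FPKM (B16-F1), 2.71 and 1.21 (B16-F1R2), and 1.96 and 1.26 (B16-F1R2L). Its log2 fold changes against B16-F1 were -0.73 (adjusted p = 0.14 from limma) and -0.93 (0.073), not past the threshold. Raet1 genes are near copies of each other, and 38.7% of the stretches of 50 bases in Raet1d also occur in another gene, so their FPKM depend on how shared reads were divided. The part of this in the values of Raet1d and Raet1a was not tested. The summed level of the 7 genes was 13.2 to 14.2 FPKM in B16-F1, 12.15 to 14.5 (B16-F1R2) and 14.4 to 14.9 (B16-F1R2L), so that B16-F1R2 overlapped with both other lines.

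In the TNF family, which holds ligands that stimulate T cells, Tnfsf9 (4-1BB ligand) was the only 1 of 7 listed genes with reads enough to test. It had 4.03 to 4.81 FPKM over the 6 libraries, with log2 fold changes against B16-F1 of -0.02 (adjusted p = 0.88 from limma) and -0.07 (0.63). Of 6 complement regulators 2 were tested, and Cr1l, which encodes the rodent inhibitor Crry, fell by 0.25 in B16-F1R2 (adjusted p = 0.011). Receptors through which lymphocytes read these ligands were mostly silent, with 1 of 9 tested, and 4 at 0 in all libraries, among them Pdcd1 and Cd226. The tested receptor, Havcr2 (TIM-3), had 1.55 and 1.59 FPKM (B16-F1) against 2.245 and 2.26 (B16-F1R2) (log2 fold change 0.49, adjusted p = 0.013 from limma).

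**Figure D5:**
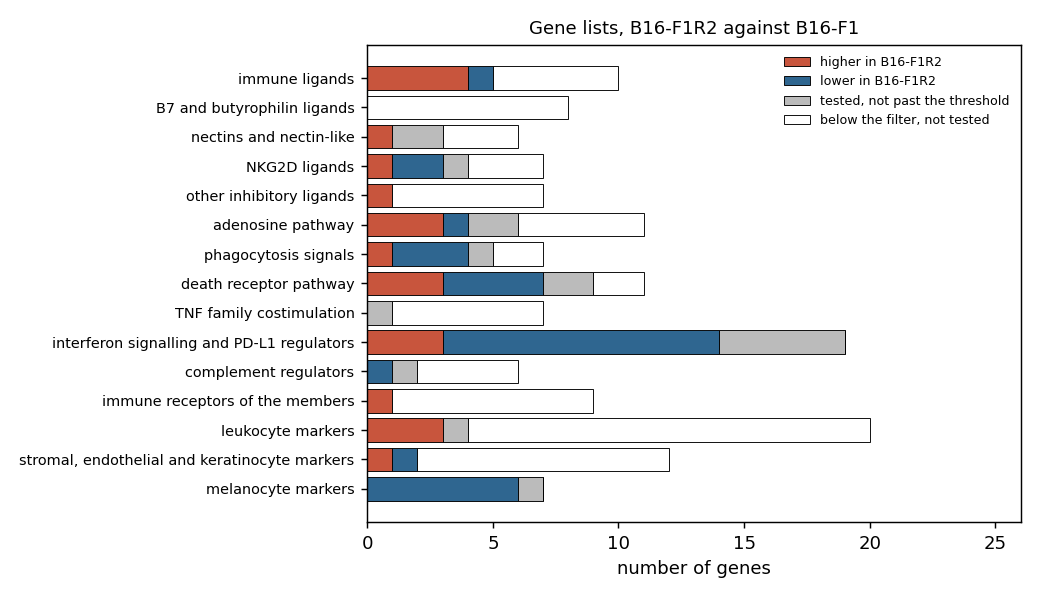
Number of genes (horizontal axis) of each list that were higher, lower or not past the threshold in B16-F1R2 against B16-F1, or below the filter. All 5 tested immune ligands changed, 4 up and 1 down, and of the 19 interferon and PD-L1 regulators 3 were higher and 11 lower, against shares of 28.2% higher and 27.2% lower over all tested genes.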

How the data were processed

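Each of the 3 lines was measured by RNA sequencing in 2 libraries. The authors purified polyadenylated RNA, sequenced single-end reads with a stranded kit, aligned them with TopHat2 2.0.10, Bowtie 1.0.0 and SAMtools 0.1.1.9 to NCBI37/mm9, and deposited FPKM values in 1 table with replicates not pooled. The submitters' processing notes also list Cuffnorm and DESeq2. The gene annotation is not given in the sources used here, and the assignment of reads by strand is not described.

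The deposited FPKM were tested as log2(FPKM + 0.1), where 2 or more of the 6 libraries reached 1 FPKM. Changes of low genes come out too small on that scale. The tests between lines used limma 3.58.1 under R 4.3.3 (eBayes with a trend), with all 6 libraries in 1 fit, no block for the replicate number, and Benjamini-Hochberg adjustment. No count test was used, as FPKM are not counts. Depth was estimated at 12400000 to 14700000 reads per library from the lowest FPKM of genes with 1 transcript, and reads per gene are approximations at the longest transcript. No counting intervals were computed.

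Positions came from the NCBIM37 annotation (GENCODE M1), where 9 of the 10 members have an entry, and promoter sequences from RefSeq. All else was done in Python 3.11.15 (numpy 2.4.6, pandas 2.3.3, matplotlib 3.10.9). The members and lists were chosen with earlier results of these data known. The text names all 10 members, their direct partners, and from each list at most 4 tested genes with the smallest adjusted p between B16-F1R2 and B16-F1, as well as list members listed at 0 or below the filter. The values of 1 listed gene are not reported here. The alternatives were other pseudocounts, filters and scalings, no trend, fewer libraries, a replicate block and a minimum fold change.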

Additional observations from a re-analysis of the deposited data

Results flagged for a closer look

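The change of Cd274 against B16-F1 differed between the 2 variants by the direct test. Its log2 fold change for B16-F1R2L against B16-F1R2 was 0.61 (adjusted p = 0.029 from limma; 0.020 to 0.14 over 15 alternatives), and the value was higher in both B16-F1R2L libraries than in both of B16-F1R2. The cause was not tested.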

How the results depend on the processing

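Pvrl2, Pvr, Cd276 and Cd274 stayed higher in both variants relative to B16-F1 by limma at the same threshold in every alternative run for them, and Cd47 was lower in B16-F1R2 in all 16, with log2 fold changes from -0.42 to -0.27. For Cd274 the log2 fold change ran from 0.48 to 0.91 in B16-F1R2 and from 0.97 to 1.52 in B16-F1R2L. Cd274 could not be tested with a filter of 5 FPKM. The causes of the changes below were not tested, apart from the smaller sets that the construction of a filter, of a minimum fold change or of a fit with fewer libraries gives.

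When a change of 1 or more on the log2 scale was required, the higher and the lower ligand genes in B16-F1R2 went from 4 and 1 to 0 and 0, as Pvrl2 lay just below 1, and for all tested genes the counts were 819 and 328. In B16-F1R2L against B16-F1 the lower ligand genes went from 1 to 0 and the counts for all genes to 957 and 259. In B16-F1R2L against B16-F1R2 the higher ligand genes went from 1 to 0 and the counts for all genes from 1378 and 1190 to 116 and 24. The 1 ligand gene lower in B16-F1R2L than in B16-F1, Cd47, became 0 with no filter, after rescaling to equal sums of FPKM, without a trend and with only the 4 libraries compared. The 1 higher than in B16-F1R2, Cd274, became 0 with a filter of 5 FPKM and after quantile normalization, and with no filter Fas was called in its place.

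For all tested genes, rescaling gave 2043 lower in B16-F1R2L than in B16-F1, and 2079 higher and 489 lower than in B16-F1R2, so that 81.0% of the calls were higher in place of 53.7%, with a median log2 fold change of 0.13 in place of 0.022. Against B16-F1, 66.6% of the B16-F1R2L calls were then higher in place of 52.1%. The lower genes between the variants numbered 743 when no filter was set and 650 when limma had no trend, and only the 4 libraries compared gave 874 higher and 644 lower. Leaving out each library in turn gave 297 to 904 higher and 140 to 991 lower genes between the variants, 0 to 1 higher ligand genes between the variants and 0 to 1 lower ligand genes in B16-F1R2L against B16-F1. The sign of the small differences between the variants turned for Pvr after quantile normalization (-0.0015) and for Pvrl2 without the second B16-F1R2 library (-0.019) and without the first B16-F1R2L library (-0.026), with a range of -0.026 to 0.076 when each library was left out.

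The replicate numbers are shared by name only: the deviations of libraries with the same number correlated by 0.052, -0.10 and 0.079 between the lines over all tested genes. With the replicate block, Cd47 in B16-F1R2L against B16-F1 had an adjusted p of 0.058, so 0 ligand genes were lower there, and no other call of a ligand gene changed. A crossed replicate block, chosen after seeing the data, also gave 0 lower ligand genes there, and 989 higher and 805 lower genes of all tested between the variants.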
